A study of Saccharomyces cerevisiae with 12 samples.

Results

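The genes described here are the nuclear genes of the yeast respiratory chain and ATP synthase. They were chosen by name: every gene of the nuclear genome whose standard name is COX, QCR or ATP with a number, plus CYT1, COR1, RIP1, CYC1 and CYC7. The rule gave 50 of the 7127 genes in the count tables. No measured value entered it, though it was chosen with earlier results of these data known. By their known roles, 34 encode structural subunits and 16 encode assembly or expression factors. The subunits comprise 9 of complex III, both forms of cytochrome c, 10 of complex IV and 13 of ATP synthase.

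In mitochondria, complex III passes electrons from ubiquinol to cytochrome c, and complex IV (cytochrome c oxidase) passes them from cytochrome c to oxygen. Both pump protons across the inner membrane, and ATP synthase uses the returning protons to make ATP. The catalytic core of complex IV, cytochrome b of complex III and part of the ATP synthase proton channel are encoded in the mitochondrial genome, and the other subunits, described here, in the nucleus. Budding yeast ferments glucose, and on glucose many respiratory genes are held below the level they reach on other carbon sources. The Hap2/3/4/5 complex, which binds CCAAT sequences, and the haem-responsive factor Hap1 are the known activators of many of them.

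RNA of Saccharomyces cerevisiae was sequenced in 12 libraries, 3 in each of 4 groups. All strains are of the BY4741 background (S288C), were grown in the rich glucose medium YPD to mid-log phase and received no treatment. WT H2AZ is the wild type for H2AZ4KR, named for 4 lysines of the histone variant H2A.Z replaced by arginine. WTIno80 is the wild type for Ino80K929R, in which a lysine of Ino80 is replaced by arginine; Ino80 is the motor protein of a chromatin remodeller of the same name. HTZ1, the H2A.Z gene, stood at 92.3 ± 5.27 normalised CPM (fragments in 1000000 counted fragments; SD, n = 3) in WT H2AZ and at 410 ± 67.0 in H2AZ4KR. INO80 stood at 150 ± 8.83 CPM in WTIno80 and at 1165 ± 89.9 in Ino80K929R, so in both mutants a higher level of the gene goes with the substitution. The marker gene LEU2 had 0 fragments in WT H2AZ and was present in the other groups. The labels do not say whether replicates are separate cultures, so p-values measure only the spread between these libraries, which may be technical.

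The libraries hold 17253140 to 20164258 counted fragments, of which the 50 genes take 0.663% to 0.972%. Genes of the mitochondrial genome are nearly absent from the tables. Its 31 listed genes together have 7 to 25 fragments a library, so the mitochondrial subunits of these complexes cannot be described. One library, WTIno80 replicate 1, stands apart from the other 5 of its table by gene length. Against the mean of the 6 libraries, its genes of 400 bases or shorter are shifted by 0.49 (median, log2) and its genes over 1500 bases by -0.31. In the other 5 these medians run from -0.19 to -0.03 for short genes and from 0.03 to 0.15 for long genes. This touches the subunits most, since their median length is 387 bases, against 871.5 for the assembly factors and 1137 for all genes tested.

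Upstream of these genes, the CCAAT letters, core of the Hap2/3/4/5 site, were searched on both strands in the 500 bases before the start codon of the reference genome (RefSeq, R64, the build of the files). The 5 letters CCAAT occurred in 42 of the 50 windows and in 62.5% of the windows of 5987 protein-coding genes. A longer form, ACCAATNA, chosen after values had been seen, occurred in 15 of the 34 subunit windows, 2 of the 16 assembly factor windows and 8.57% of all windows. It contains the short form, so each such match counts under both. The first base of the longer form lay 134 bases (ATP15) to 248 bases (RIP1) before the start codon in these subunits, other than COX5B (73 bases) and COR1 (351 bases). A Hap1 motif was found in 1 member, QCR6, and in 0.351% of all windows. A match is a string of letters and no evidence of binding, and the lack of a match is no evidence that a site is absent. The stretches below show the longer form in subunits of each complex, written 5′ to 3′ on the gene's strand with the match in capitals. In COX6 and ATP19 the match is on the other strand and is read as its reverse complement.
QCR7, chrIV:1496713-1496740, minus strand: tcttgttttgACCAATCAggagcgacgc
COR1, chrII:135850-135877, minus strand: cgctttctgcACCAATGAaatgccaata
RIP1, chrV:107002-107029, plus strand: tccataacggACCAATCAgcgttttgcg
COX6, chrVIII:209478-209505, plus strand: aaaagggaccTAATTGGTccggtcaaag
COX8, chrXII:910150-910177, minus strand: aacggtttgcACCAATCAtacgagagaa
COX12, chrXII:225361-225388, minus strand: cataacattgACCAATCAattttcagaa
COX13, chrVII:144585-144612, plus strand: tttttttcccACCAATGAgaggcggtac
ATP15, chrXVI:29935-29962, plus strand: ttttatacgaACCAATGAaatttgatcc
ATP17, chrIV:1228371-1228398, plus strand: tacggagagaACCAATCAtatcgaagga
ATP19, chrXV:185292-185319, plus strand: atctcgatggTGATTGGTcagagtccgc
QCR9, which fell in H2AZ4KR, holds the short form only, shown next for comparison, and COX26, which also fell, holds neither form in its window.
QCR9, chrVII:859669-859693, minus strand: tatacacgacCCAATcaaacgcggg

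All 50 genes passed the filter on low counts in both tables. Levels are compared between genes as normalised fragments per kb of gene length on the CPM scale (FPKM), and within a gene as normalised CPM. Structural subunits had a median level of 352 FPKM in WT H2AZ, and assembly factors 49.1. The same order held in H2AZ4KR (389 and 48.4 FPKM), WTIno80 (341 and 43.3) and Ino80K929R (277 and 36.9). ATP2, the catalytic beta subunit of the F1 head, had the highest level of the 50 in every group, at 1217 ± 138 FPKM (SD, n = 3) in WT H2AZ, 1354 ± 34.4 in H2AZ4KR, 843 ± 82.2 in WTIno80 and 1004 ± 82.8 in Ino80K929R. COX14, a complex IV assembly factor, was the highest assembly factor in each group, from 202 to 299 FPKM. The lowest member was ATP23, a protease and chaperone of Atp6, in WT H2AZ (10.5 ± 2.10 FPKM) and H2AZ4KR (11.3 ± 0.199), and ATP10, another ATP synthase assembly factor, in WTIno80 (17.7 FPKM) and Ino80K929R (19.5).

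**Figure D1:**
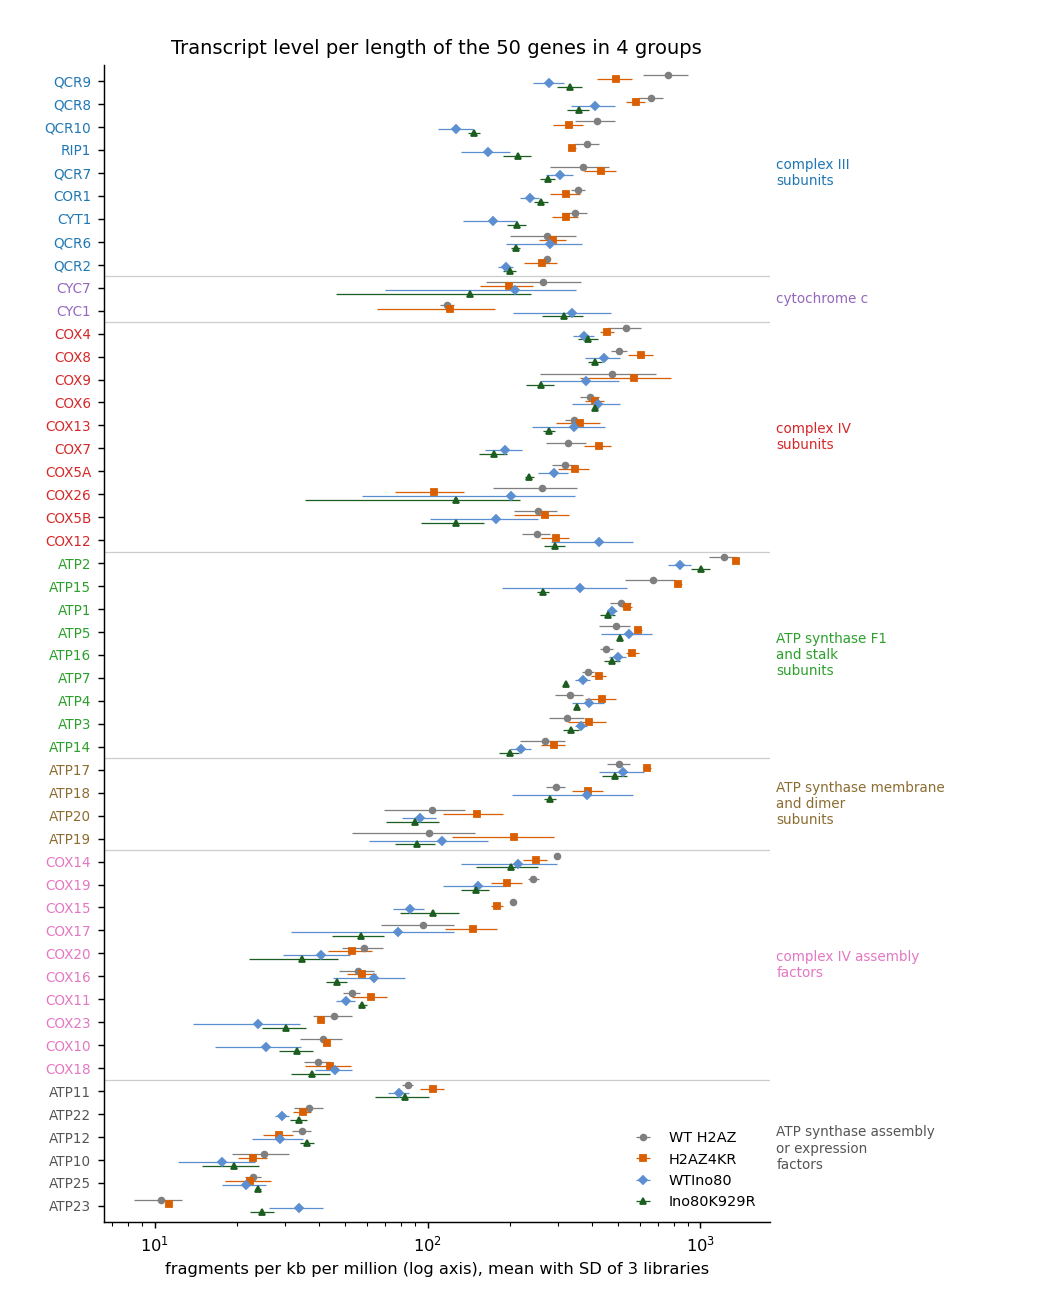
Mean level of each of the 50 genes in FPKM (log axis) with the SD of 3 libraries, by complex and group. Subunits lie mostly above the assembly factors, and in complex III most Ino80-table values (blue and green) lie below the H2AZ-table values (grey and orange).

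Within the complexes the subunit levels were uneven. In WT H2AZ, complex III subunits ran from 274 FPKM (QCR2, a core protein) to 758 (QCR9, a small subunit), and complex IV subunits from 251 (COX12) to 531 (COX4). The F1 and stalk subunits ran from 268 (ATP14) to 1217 FPKM (ATP2). The membrane and dimer subunits ran from 101 (ATP19, subunit k, linked to dimer formation) to 504 FPKM (ATP17, subunit f). The ratio of the highest to the lowest was 2.77 in complex III, 2.11 in complex IV and 4.54 in the F1 and stalk part. Lengths in the tables are coding lengths, so FPKM leaves out untranslated parts.

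H2AZ4KR was set against WT H2AZ to ask whether the RNA of these genes differs between the strains. They also differ in LEU2 and in the level of HTZ1, so substitution, marker and level cannot be told apart here. Of the 50, 2 fell and none rose, at an edgeR adjusted p below 0.05 over all 6106 genes tested and a fold over 1.5. Both are small subunits, COX26 of complex IV and QCR9 of complex III. Among all genes tested, 4.78% rose and 7.32% fell. DESeq2 called COX17 as risen in addition. Of the 50, 16 had an unadjusted edgeR p below 0.05, a smaller share than the 2226 of all 6106 genes tested. For 39 of the 50, the approximate 95% interval of the change lay within 1.5-fold in either direction. The intervals given here take the SE with the normal distribution, which is too narrow for so few libraries. Such counts may therefore be too high. The median log2 fold change of the members was 0.08, against -0.01 for all genes tested.

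COX26 (YDR119W-A) encodes a small peripheral subunit of complex IV found in respiratory supercomplexes, and lies on chromosome IV from 691014 to 691214 in 1 exon. Its normalised level was 40.5, 73.4 and 44.3 CPM in WT H2AZ replicates 1, 2 and 3, and 15.9, 27.9 and 20.1 CPM in the H2AZ4KR replicates. All mutant libraries were below all wild-type libraries, and the fitted level was 2.48-fold lower (log2 -1.31, SE 0.25, adjusted p = 0.00529). In the other table COX26 varied widely within a group: 71.3, 13.6 and 36.8 CPM in WTIno80, and 39.2, 32.9 and 4.57 CPM in Ino80K929R. Those libraries span the H2AZ4KR values, and in 1 fit of all 12 libraries, where the spread is shared, the same fall had an adjusted p of 0.249.

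QCR9 (YGR183C) encodes a small subunit of complex III, and lies on the minus strand of chromosome VII from 859063 to 859476 in 2 exons. It stood at 185, 133 and 139 CPM in WT H2AZ and at 115, 92.7 and 88.1 CPM in H2AZ4KR, again with no overlap. The fitted level was 1.54-fold lower (log2 -0.63, SE 0.14, adjusted p = 0.0111), just past the fold limit. The call ends without WT H2AZ replicate 1, the highest library, where the log2 fold change was -0.47, and without H2AZ4KR replicate 3, where the adjusted p was 0.0512. Without WT H2AZ replicate 1, CYC7 was called as fallen in its place.

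The other complex III subunits did not pass. Of the 9, 7 lay below 0, with a median log2 fold change of -0.15. The next lowest was QCR10, another small subunit, at -0.33 (SE 0.14, adjusted p = 0.123). RIP1, the Rieske iron-sulphur protein, was at -0.18, CYT1, cytochrome c1, at -0.11, and the core proteins COR1 and QCR2 at -0.15 and -0.06. QCR7 (0.22) and QCR6 (0.07) were above 0. With scaling by total counts, which moves the median of all genes from -0.01 to -0.15, 8 of the 9 lay below 0.

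All 13 ATP synthase subunits had a positive log2 fold change, and none passed the fold limit with an adjusted p below 0.05. The median was 0.26 for the 9 F1 and stalk subunits and 0.47 for the 4 membrane and dimer subunits. With scaling by total counts the medians were 0.12 and 0.32, and 3 of the 9 F1 and stalk subunits turned negative. Fold changes in H2AZ4KR also moved with gene length: the median was 0.14 over genes of 400 bases or shorter and -0.04 over genes above 1500 bases. With the length offset the medians were 0.30 and 0.47, and all 13 lay above 0. Of the 13, 3 had an adjusted p below 0.05 below the fold limit: ATP16, the delta subunit of the central stalk (0.32, adjusted p = 0.0402), ATP17 (0.34, adjusted p = 0.0307) and ATP18, subunit i (0.39, adjusted p = 0.0446). ATP17 stood at 171, 144 and 147 CPM in WT H2AZ and at 189, 198 and 199 CPM in H2AZ4KR. Its groups did not overlap, and neither did those of ATP16 and ATP18. The highest of the 3, ATP18, was 1.31-fold, so none counts as called. Among all 6106 genes tested, 1400 had an adjusted p below 0.05 at any fold. All mutant libraries lay above all wild-type libraries in 18.4% of the genes tested.

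ATP19 had the highest log2 fold change of the 50, at 1.03 (SE 0.35, adjusted p = 0.0584), and did not pass. Its level was 13.1, 32.2 and 17.6 CPM in WT H2AZ and 23.8, 57.8 and 47.0 CPM in H2AZ4KR. The groups overlapped, because WT H2AZ replicate 2 exceeded H2AZ4KR replicate 1. ATP20, subunit g of the dimer, gave 27.2, 49.4 and 31.3 CPM against 39.8, 66.0 and 52.4 CPM, with overlap (0.55, adjusted p = 0.117). ATP19 and COX17 were called as risen under the gene length offset and under the replicate block (block edgeR adjusted p = 0.000683 and 0.00468). They were also called, with ATP20, without WT H2AZ replicate 2 or without H2AZ4KR replicate 1. For ATP19 and ATP20, each H2AZ4KR library lay above the WT H2AZ library of the same number.

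Of the 10 complex IV subunits, 8 were above 0, with a median of 0.10 that became -0.04 with scaling by total counts. Apart from COX26, no subunit passed. COX7 (0.37) and COX8 (0.26), both small membrane subunits, had all mutant libraries above all wild-type libraries, with adjusted p of 0.0821 and 0.108. Of the 50 genes, 8 showed this separation upwards and 6 downwards, against 18.4% and 22.2% of all genes. The 16 assembly factors had a median of -0.06 and none passed. COX17, a copper chaperone for complex IV, was highest at 0.61 (adjusted p = 0.0724), with 15.3, 26.9 and 18.2 CPM in WT H2AZ and 23.8, 37.0 and 32.0 CPM in H2AZ4KR, which overlap. COX19, a related protein of the intermembrane space, was lowest at -0.32 (adjusted p = 0.0729).

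**Figure D2:**
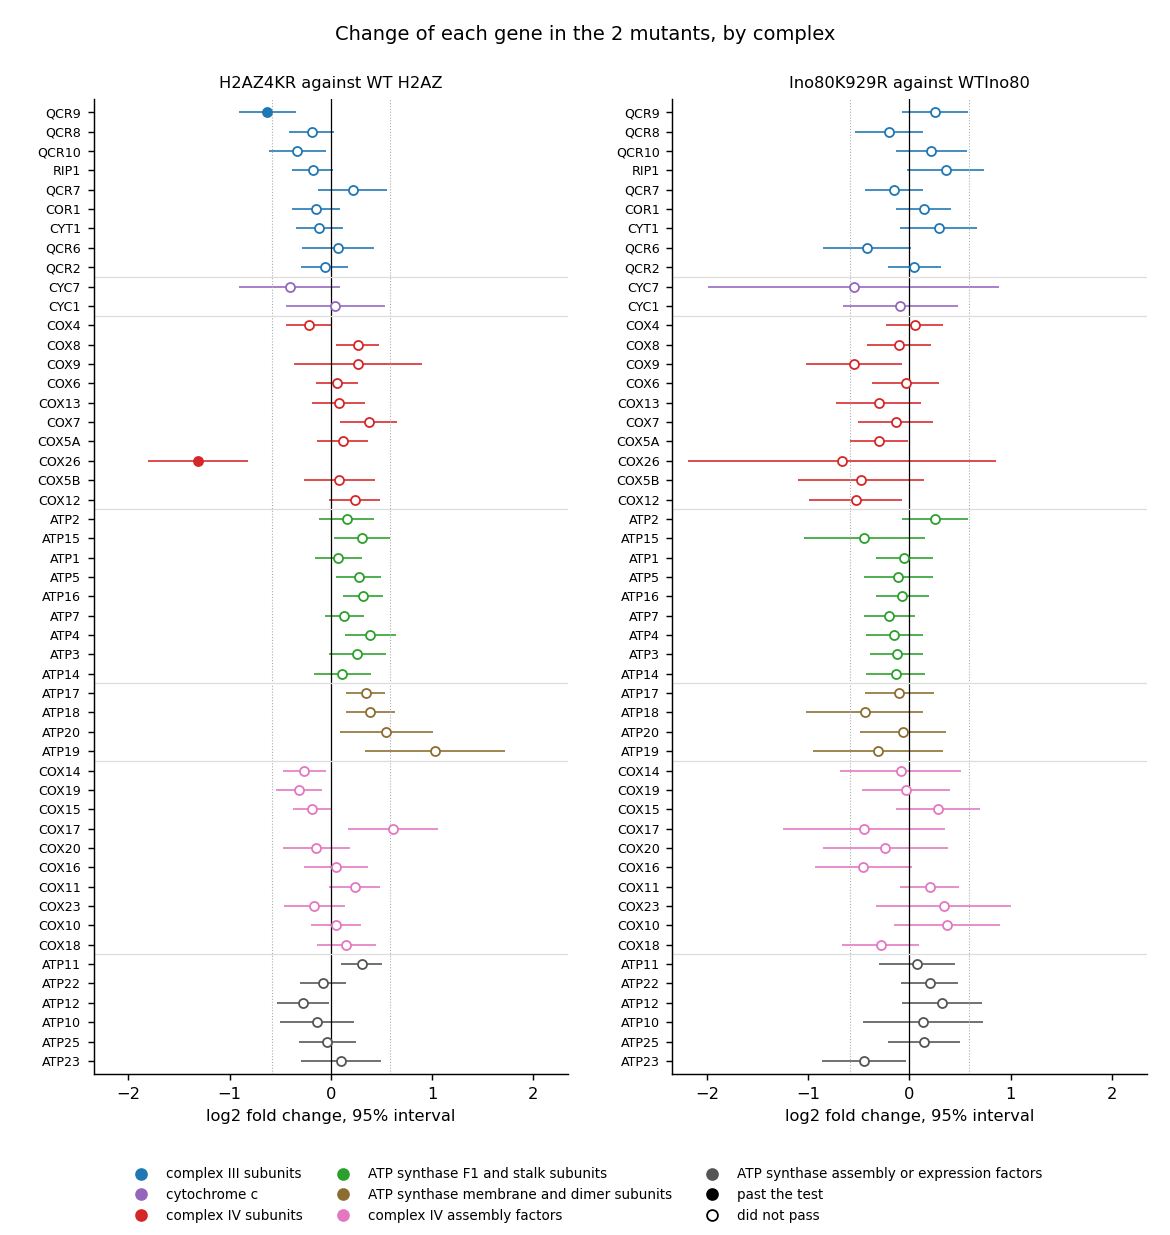
Log2 fold change of each gene with its approximate 95% interval (SE with the normal distribution) in H2AZ4KR (left) and Ino80K929R (right), coloured by complex. Filled points passed the test, open points did not, and dotted lines mark a fold of 1.5. COX26 and QCR9 are the filled points on the left, all 13 ATP synthase subunits there lie right of 0, and no point is filled on the right.

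Ino80K929R was set against WTIno80 to ask the same of that pair. INO80 itself stood higher in the mutant, so substitution and level cannot be told apart here. None of the 50 genes passed, and none had an unadjusted edgeR p below 0.05. DESeq2 called none of the 50 either. Across all 6161 genes tested, 1 gene passed, INO80 itself (0.0162% rose and 0% fell), 380 had an unadjusted p below 0.05 and DESeq2 called 9. The intervals were wider than in the H2AZ table. For 25 of the 50 genes the approximate 95% interval lay within 1.5-fold, and for 42 within 2-fold. These counts too may be too high. A missed threshold therefore does not show that a level did not change.

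The subunits had a median log2 fold change of -0.13 and the assembly factors one of 0.11, against -0.01 for all genes. Complex IV subunits stood at -0.30, with 9 of 10 below 0, and complex III subunits at 0.14, with 6 of 9 above 0. The F1 and stalk subunits stood at -0.12 and the membrane and dimer subunits at -0.21. These medians moved with gene length and with WTIno80 replicate 1. In this comparison all genes of 400 bases or shorter had a median of -0.32 and genes over 1500 bases one of 0.16. Without that library the subunit median was -0.01, that of complex IV -0.03 and that of the membrane and dimer subunits 0.04. With an offset for gene length the subunit median was 0.12 and 24 of 34 lay above 0. Of the 50 genes, 4 had all mutant libraries above and 4 all below the wild type, against 7.63% and 8.26% of all genes.

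The lowest log2 fold changes were those of COX26 (-0.66, SE 0.78), CYC7 (-0.55, SE 0.73) and COX9, a small complex IV subunit (-0.55, SE 0.24). CYC7 stood at 115, 20.3 and 79.6 CPM in WTIno80 and at 60.2, 74.9 and 11.6 CPM in Ino80K929R. COX9 stood at 92.8, 62.8 and 49.8 CPM in WTIno80 and at 52.9, 43.3 and 44.2 CPM in Ino80K929R. In each of the 3 genes the groups overlapped. Within this table CYC7 and COX26 were lowest in the same libraries, WTIno80 replicate 2 and Ino80K929R replicate 3.

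The highest were COX10, the haem O synthase for complex IV (0.37, SE 0.27), RIP1 (0.36, SE 0.19) and COX23, a complex IV assembly factor (0.34, SE 0.34). RIP1 stood at 82.2, 120 and 121 CPM in WTIno80 and at 155, 138 and 122 CPM in Ino80K929R, which only just do not overlap. COX10 gave 25.1, 49.3 and 32.1 CPM against 48.0, 38.8 and 51.5 CPM. COX23 gave 15.8, 10.4 and 6.60 CPM against 14.4, 15.9 and 11 CPM, and both genes overlapped. The smallest adjusted p among the 50 was 0.722.

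**Figure D3:**
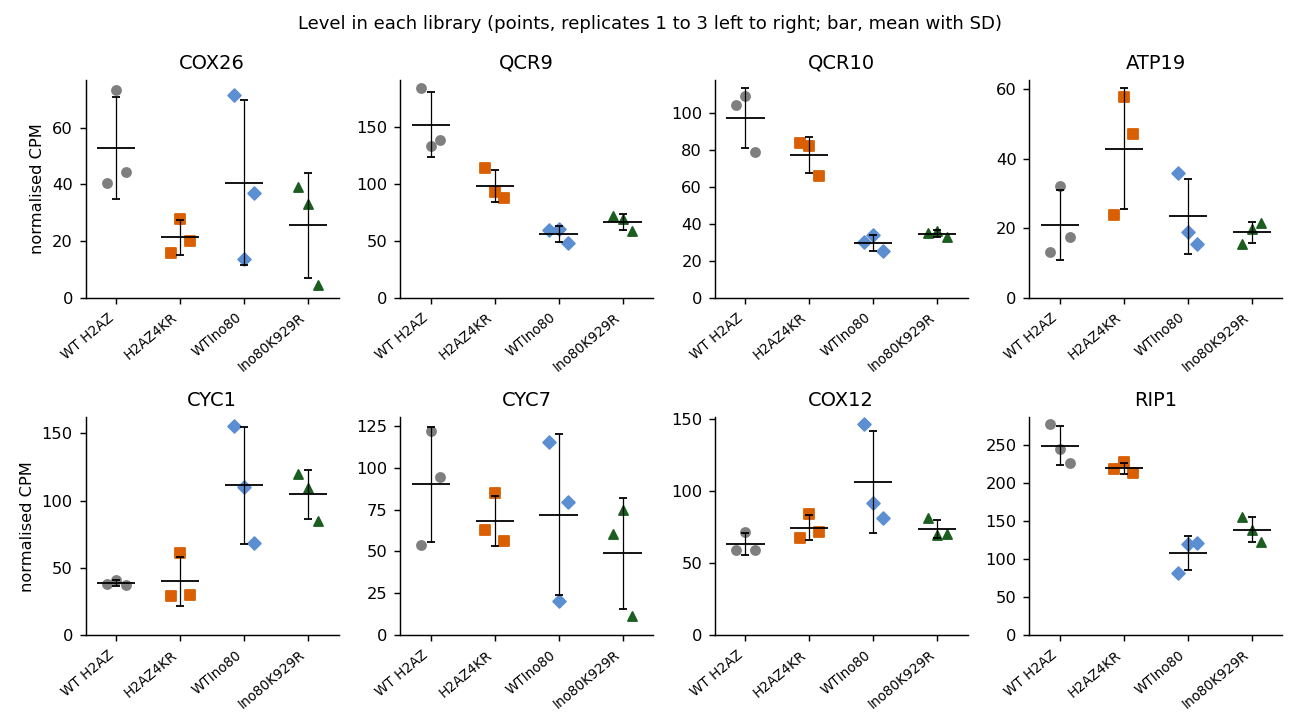
Normalised CPM of 8 genes in each library, with replicates 1 to 3 from left to right and the mean with SD of 3 libraries as bars. COX26 and QCR9 are lower in H2AZ4KR than in WT H2AZ without overlap, WTIno80 replicate 1 is the highest of its group for COX26, ATP19, CYC1, CYC7 and COX12, and QCR9, QCR10 and RIP1 are lower in all 6 libraries of the Ino80 table.

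The difference between the mutant effects was tested in 1 fit of all 12 libraries, as the change in Ino80K929R minus the change in H2AZ4KR. The contrast also holds the LEU2 difference of the H2AZ pair and the higher HTZ1 and INO80 levels. These cannot be told apart from the substitutions here. Of the 50 genes, QCR9 alone passed, with a difference of 0.89 (log2, SE 0.23, adjusted p = 0.0496), where 2.26% of 6235 genes passed upwards and 1.99% downwards. Its own changes were -0.63 in H2AZ4KR and 0.25 in Ino80K929R, whose values of 72.4, 69.4 and 59.1 CPM overlapped those of WTIno80, at 60.0, 60.5 and 47.8 CPM. The call rests on the margin of the threshold, since leaving out single libraries moved the adjusted p from 0.0301 to 0.121 and ended the call for 9 of the 12. COX26 was not shown to differ between the mutants (0.65, SE 0.91, adjusted p = 0.697), nor was ATP19 (-1.34, SE 0.56, adjusted p = 0.165).

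More of these genes were called between the wild types than in either mutant. The same held for all genes, with 2036 called, against 739 in H2AZ4KR and 1 in Ino80K929R. Relative to WT H2AZ, 12 of the 50 were lower in WTIno80 and 3 were higher, against 15.0% and 17.7% of all 6235 genes. The strains were counted in separate tables and differ in LEU2, so strain, marker and table cannot be told apart here. Complex III held 6 of the 12: QCR10, QCR9, RIP1, CYT1, QCR8 and COR1, and the median of its 9 subunits was -0.68. Of the others, QCR2 was at -0.50 with an adjusted p of 0.00601 but below the fold limit, QCR7 was at -0.28 and QCR6 at 0.03. The median of all genes tested was 0.03, and the class median nearest to that of complex III was that of the complex IV assembly factors, at -0.50. Genes of 400 bases or shorter had a median of 0.28 in this contrast and genes over 1500 bases one of -0.19, and the part of length in these results was not tested further than by the offset. With the length offset the complex III median was -0.99, and 2 of the 50 genes were higher and 17 lower. The shares of all genes given above are those of the main fit. This count and the next therefore cannot be read against them. Without WTIno80 replicate 1 the complex III median was -0.85 and 5 of the 9 passed. COR1, at 1.50-fold, was lost there, without WT H2AZ replicate 1, under the block and under the length offset.

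QCR10 (YHR001W-A, chromosome VIII, 107826 to 108122, 2 exons) showed the lowest value. It stood at 104, 109 and 78.8 CPM in WT H2AZ and at 30.1, 34.1 and 25.3 CPM in WTIno80, and was 3.26-fold lower (log2 -1.71, SE 0.16, adjusted p = 3.24e-05). QCR9 was 2.72-fold lower (adjusted p = 7.80e-05), with means of 152 ± 28.3 and 56.1 ± 7.19 CPM. These are the only 2 of the 50 genes with more than 1 exon in the tables. Genes with more than 1 exon, ribosomal protein genes left out, had a median of 0.15 (193 genes, QCR9 and QCR10 included). The part of exon number in the change was not tested. RIP1 was 2.31-fold lower, at 277, 245 and 226 CPM against 82.2, 120 and 121 CPM. CYT1 was 2.01-fold lower, at 323 ± 33.3 against 161 ± 36.1 CPM. In each of these 4 genes no library of WTIno80 reached the lowest of WT H2AZ. Of the 50, 15 were separated downwards in this way and 4 upwards. The share over all genes was not computed, so these counts are no result about the 50 genes. Of all 6235 genes tested, 2688 had an edgeR adjusted p below 0.05 between the wild types.

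Of the assembly factors, 4 for complex IV were lower in WTIno80. COX15, a haem A synthase component, was 2.38-fold lower, with 292, 307 and 300 CPM against 117, 116 and 145 CPM (adjusted p = 0.000169). COX23, COX10 and COX19 were at -0.93, -0.69 and -0.67. COX10 acts before COX15 in haem A synthesis. Its call was lost without WT H2AZ replicate 1, WTIno80 replicate 1 or WTIno80 replicate 3, that of COX23 without WT H2AZ replicate 2, and that of COX19 without WTIno80 replicate 2. Among subunits, COX7 of complex IV (-0.77) and ATP15, the epsilon subunit of the ATP synthase stalk (-0.89), were also lower. For ATP15 the groups touched, since WTIno80 replicate 1 had 106 CPM against 51.1 and 47.5 in replicates 2 and 3, and the lowest WT H2AZ library had 104 CPM. The ATP15 call was lost without WT H2AZ replicate 2, WTIno80 replicate 2 or WTIno80 replicate 3. The other 8 F1 and stalk subunits and the 4 membrane and dimer subunits did not pass. The median of the F1 and stalk part was -0.06.

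Higher in WTIno80 were ATP23, CYC1 and COX12. ATP23 stood at 8.78, 10.1 and 6.73 CPM in WT H2AZ and at 34.7, 23.9 and 24.0 CPM in WTIno80, all above WT H2AZ and 3.21-fold higher (log2 1.68, SE 0.20, adjusted p = 9.80e-05). The mutants stood at 9.17 ± 0.162 CPM in H2AZ4KR and 20.2 ± 2.01 in Ino80K929R, so both groups of the Ino80 table lay above both of the H2AZ table. COX12, a complex IV subunit facing the intermembrane space, was at 63.3 ± 7.53 and 107 ± 35.3 CPM (0.75, adjusted p = 0.0093). That call was lost without WTIno80 replicate 1, where the log2 fold change was 0.43, and under the gene length offset.

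**Figure D4:**
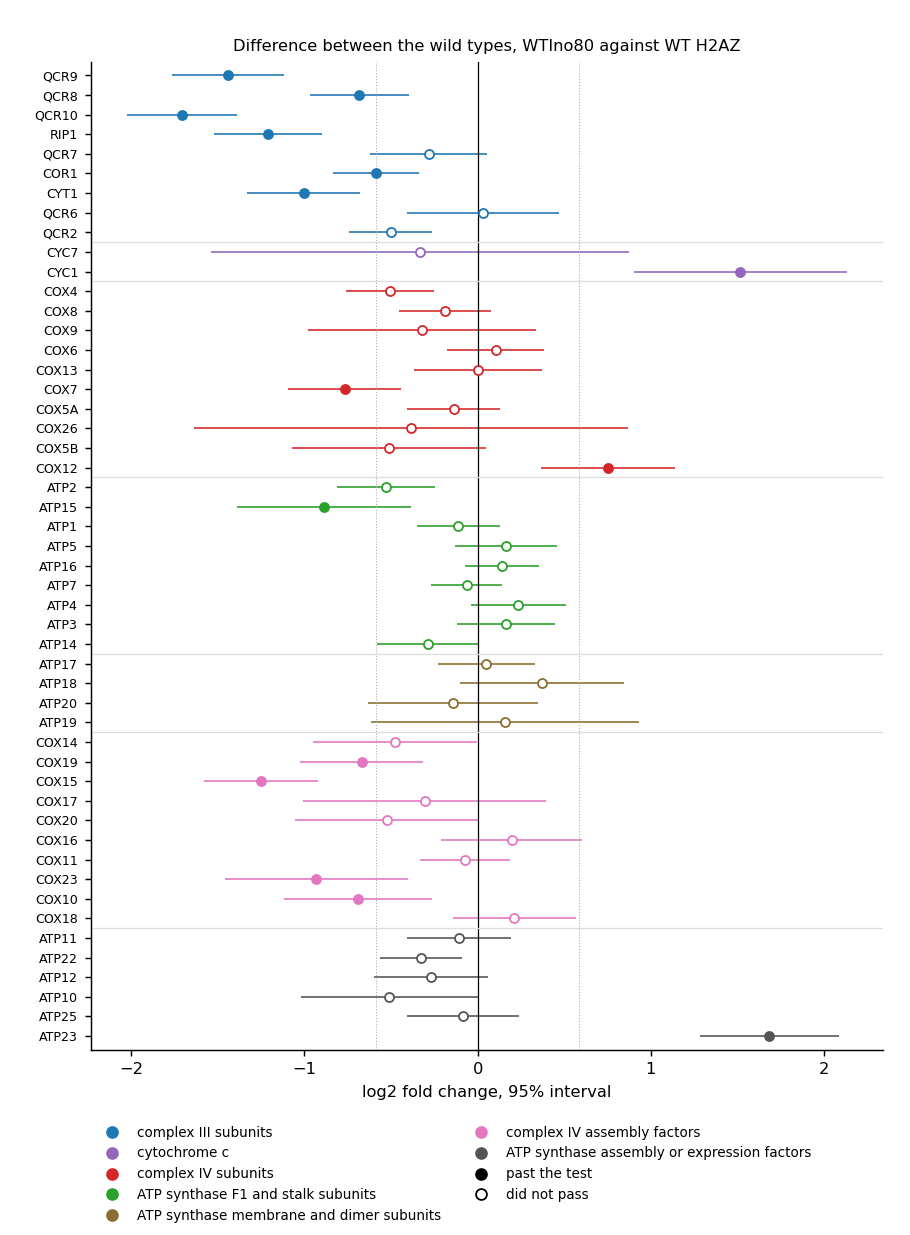
Log2 fold change of each gene in WTIno80 against WT H2AZ with its approximate 95% interval (SE with the normal distribution), coloured by complex. Filled points passed the test and dotted lines mark a fold of 1.5. The filled points left of 0 are 12 genes, 6 of them in complex III, and those right of 0 are CYC1, COX12 and ATP23.

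Yeast carries alternative forms of cytochrome c and of subunit 5 of complex IV. CYC1 and COX5A are the forms of aerobic cells, and CYC7 and COX5B the forms favoured when oxygen is low. CYC1 stood at 38.2, 41.3 and 37.0 CPM in WT H2AZ, at 28.8, 61.2 and 29.9 CPM in H2AZ4KR, at 155, 110 and 68.6 CPM in WTIno80 and at 120, 109 and 84.7 CPM in Ino80K929R. All 6 libraries of the Ino80 table lay above the 6 of the H2AZ table, and WTIno80 was 2.86-fold above WT H2AZ (log2 1.52, SE 0.31, adjusted p = 0.00247). CYC7 stood at 53.9, 122 and 94.5 CPM in WT H2AZ and at 63.0, 84.9 and 56.2 CPM in H2AZ4KR, and did not pass in any comparison. Per length, CYC7 made up 67.6 ± 8.74% (SD, n = 3) of both forms together in WT H2AZ and 63.2 ± 5.41% in H2AZ4KR. The share was 36.6 ± 19.3% in WTIno80 and 28.1 ± 14.6% in Ino80K929R.

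COX5A stood at 136, 166 and 141 CPM in WT H2AZ, 136, 178 and 165 in H2AZ4KR, 152, 131 and 119 in WTIno80 and 114, 108 and 106 in Ino80K929R. COX5B stood at 93.6, 135 and 117 CPM in WT H2AZ, 91.6, 129 and 146 in H2AZ4KR, 121, 58.7 and 63.6 in WTIno80 and 70.1, 62.7 and 41.1 in Ino80K929R. Neither passed in any comparison, though COX5B was called lower in WTIno80 without WTIno80 replicate 1 and under the length offset. The COX5B share of the pair was 44.1 ± 2.60%, 43.4 ± 3.42%, 37.0 ± 6.89% and 34.7 ± 5.55% in the same order of groups. The COX5B model in the tables is 455 bases in 1 exon and starts downstream of the reference start, and fragments matching both forms of a pair were left out of the counts, so the shares describe the counted parts.

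**Figure D5:**
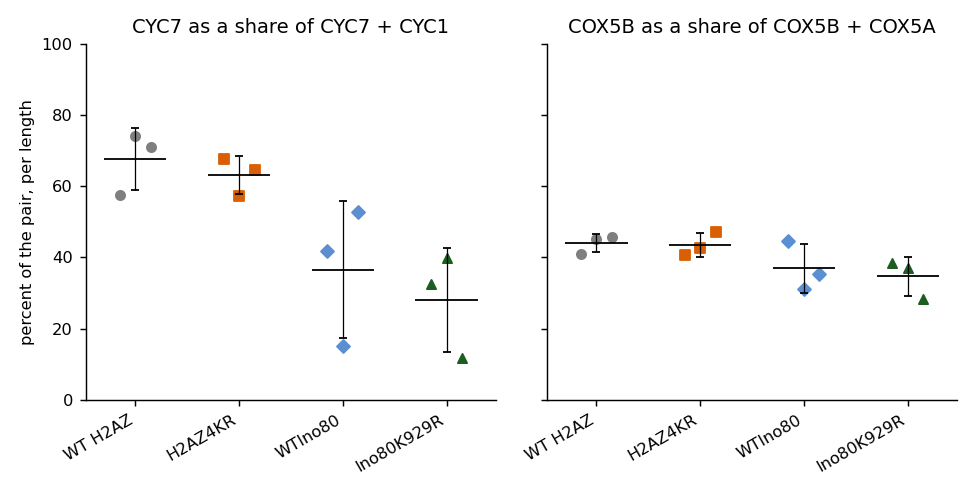
Share of CYC7 in CYC7 plus CYC1 (left) and of COX5B in COX5B plus COX5A (right), in percent per length, for each library with the mean and SD of 3 libraries. The CYC7 share lies above 57% in all 6 libraries of the H2AZ table and below 53% in all 6 of the Ino80 table, while the COX5B shares overlap.

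Other genes of the pathway were listed by role beside the members, with earlier results of these data known. Of 10 other respiratory chain enzymes, 4 fell in H2AZ4KR, none rose, and all 10 lay below 0, with a median of -0.59. Of all genes tested there, 7.32% fell and 4.78% rose. The 4 were SDH2, the iron-sulphur subunit of succinate dehydrogenase (-0.68, adjusted p = 0.00178), NDI1, the internal NADH dehydrogenase (-0.63, adjusted p = 0.00262), CYB2, a lactate dehydrogenase (-0.61, adjusted p = 0.00585), and GUT2, the mitochondrial glycerol-3-phosphate dehydrogenase (-1.14, adjusted p = 0.00632). SDH2 stood at 346 ± 24.6 CPM in WT H2AZ and 216 ± 15.8 in H2AZ4KR. The CYB2 call was lost without WT H2AZ replicate 2 or H2AZ4KR replicate 1, and the NDI1 and CYB2 calls under the length offset. The first 2 and GUT2 pass electrons to ubiquinone ahead of complex III, and CYB2 passes them to cytochrome c. In Ino80K929R none of the 10 passed and the median was 0.15. In WTIno80 against WT H2AZ, 6 of the 10 were lower and none higher, where 15.0% of all genes were lower and 17.7% higher, with NDI1 at -1.67, SDH1, the flavoprotein subunit, at -1.65, SDH2 at -1.48 and SDH3, a membrane anchor, at -1.15.

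Of 48 other assembly and expression factors, 2 rose and 2 fell in H2AZ4KR, with a median of -0.03. Of all genes tested, 4.78% rose and 7.32% fell, so these counts are near or below the background and are no result about the list. PET122, a translational activator of COX3, rose (0.76, adjusted p = 0.00899), and AEP2, needed for expression of the mitochondrial OLI1 gene, fell (-0.76, adjusted p = 0.00316). NCA3, linked to expression of ATP6 and ATP8, fell (-0.71, adjusted p = 0.0175). COA6, a complex IV assembly factor, rose by 2.20 (adjusted p = 0.028) from 0.759 ± 0.203 to 3.48 ± 2.39 CPM, and its H2AZ4KR libraries ran from 0.724 to 4.88 CPM. Its call was lost without any 1 of WT H2AZ replicates 1, 2 and 3 and H2AZ4KR replicates 2 and 3, and that of NCA3 without WT H2AZ replicate 1 or H2AZ4KR replicate 2. In 1 fit of all 12 libraries, of the 8 calls made in H2AZ4KR in these lists only those of SDH2 and AEP2 remained. None of the 48 passed in Ino80K929R. In WTIno80 NCA3 (1.54) and CBS1, a translational activator of cytochrome b (1.16), were higher, and 4 were lower, where 17.7% of all genes were higher and 15.0% lower, among them BCS1, the chaperone that inserts the Rieske protein (-0.81, adjusted p = 0.000745). Of 4 other ATP synthase proteins, TIM11, INH1, STF1 and STF2, none passed in any comparison.

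Of 14 regulators of respiratory genes, none passed in either mutant, with medians of -0.03 in H2AZ4KR and 0.17 in Ino80K929R. HAP4, the activating subunit of the Hap2/3/4/5 complex, stood at 545 ± 52.6 CPM in WT H2AZ and 530 ± 112 in H2AZ4KR. Between the wild types 7 of the 14 were lower in WTIno80 and 1, HAP3, was higher, where 15.0% of all genes were lower and 17.7% higher. IXR1, a regulator of hypoxic genes, was at -2.01 (adjusted p = 1.86e-05), HAP1 at -0.95 (adjusted p = 8.05e-05) and SNF1, the kinase that relieves glucose repression, at -1.02 (adjusted p = 9.34e-05). HAP1 stood at 424 ± 13.7 CPM in WT H2AZ, 381 ± 33.2 in H2AZ4KR, 219 ± 13.5 in WTIno80 and 236 ± 8.26 in Ino80K929R, and the 2 tables did not overlap. HAP4 was lower by a small margin (-0.71, adjusted p = 0.0474), a call lost under the length offset, the replicate block and the omission of each library but WTIno80 replicate 3, Ino80K929R replicate 1 and Ino80K929R replicate 3. The HAP3 call was lost without WT H2AZ replicate 1 or WTIno80 replicate 1.

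Counting ignored strand, and fragments over the shared stretch of overlapping genes were dropped. Among the 50, this touches COX20 (45.0% of its length under a gene on the opposite strand), ATP1 (15.3%) and ATP14 (8.53%), none of which was called in any comparison.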

How the data were processed

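RNA of 12 libraries in 4 groups was measured. The deposited values are counts: per the file headers, the authors counted fragments over exons with featureCounts 2.0.1 on sacCer3 gene models, unstranded, without multi-mapping or multi-overlapping fragments. Reads were aligned with Bowtie 0.12.2, per the submitters' processing notes. Both tables list the same 7127 genes. Counts were used unchanged with edgeR 4.0.16 in R 4.3.3 (filterByExpr, minimum count 10; TMM factors; quasi-likelihood test), each mutant in a fit of its own 6 libraries, and the difference between mutants and the wild-type comparison in 1 fit of 12. A gene was called at a Benjamini-Hochberg adjusted p below 0.05 over all genes tested and a fold over 1.5, the thresholds the series states. Normalised CPM and FPKM use TMM factors over all 12 libraries. Alternatives used DESeq2 1.42.0, limma 3.58.1 (voom), other scaling, filters, folds, a length offset (loess, span 0.5), a replicate block and each library left out. Genes with values in every library were those called in a mutant or in the difference, both isoform pairs and the 3 highest and 3 lowest per mutant; any other gene was picked with its values in view. The members and lists were chosen with earlier results of these data known. The fits were also run on counts simulated from the edgeR model itself. The simulation held no length trend, outlying library or pairing, so it does not test how the fits handle those.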

Additional observations from a re-analysis of the deposited data

Results flagged for a closer look

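The mutant effects differed past the threshold, in the 12-library edgeR contrast of Ino80K929R minus H2AZ4KR, for 1 member and 3 genes of the other lists. The LEU2 difference and the HTZ1 and INO80 levels enter this contrast too and cannot be told apart from the substitutions. QCR9 differed by 0.89 (log2, adjusted p = 0.0496). SDH2 of succinate dehydrogenase differed by 1.04 (adjusted p = 0.0393), from 346 ± 24.6 to 216 ± 15.8 CPM in H2AZ4KR and from 124 ± 26.7 to 159 ± 28.9 CPM in Ino80K929R. RCF2, a supercomplex factor, differed by -1.03 (adjusted p = 0.0192), from 142 ± 8.90 to 205 ± 17.8 CPM and from 190 ± 21.7 to 135 ± 17 CPM. AEP2 differed by 0.79 (adjusted p = 0.0438), from 39.7 ± 5.0 to 23.4 ± 1.74 CPM and from 50.1 ± 3.32 to 51.1 ± 5.71 CPM. Under the replicate block none of the 4 passed.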

How the results depend on the processing

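The main counts were 739 genes called in H2AZ4KR, 1 in Ino80K929R, 265 in the difference and 2036 between the wild types. With DESeq2 the difference gave 729 genes and Ino80K929R 9, and COX17 became 1 member that rose in H2AZ4KR. With 1 fit of all 12 libraries H2AZ4KR gave 346 genes and 1 member that fell, and Ino80K929R 2 genes. With a fold over 2, H2AZ4KR gave 239 genes and 1 member that fell, the wild types 941 genes and 5 lower members, and the difference 0 members. With no fold limit H2AZ4KR gave 1400 genes and 3 risen members, and with the length offset 2. With limma-voom the difference held 0 members. Whether replicate numbers pair the samples is not settled, and the main fits did not pair them. Same-numbered deviations correlated at 0.16, 0.21 and -0.11 in the H2AZ table and 0.38, -0.38 and -0.13 in the Ino80 table. H2AZ4KR replicates 1 and 2 and Ino80K929R replicate 1 correlated best with their own number, and the other mutant libraries did not. The highest value, 0.62, was that of Ino80K929R replicate 3 with WTIno80 replicate 2. The replicate block gave 32 genes and 0 members in the difference, and 2 risen members in H2AZ4KR. Leaving out single libraries gave 26 to 594 genes and 0 to 2 risen members in the difference, 617 to 742 genes, 1 to 2 fallen and 0 to 3 risen members in H2AZ4KR, and 1733 to 2127 genes, 10 to 13 lower and 2 to 3 higher members between the wild types. Of all 50 members, 12 changed sign under total counts in H2AZ4KR, and in Ino80K929R 19 under the length offset and 11 without WTIno80 replicate 1, none of them called. Among the members given in every library, the sign changed in H2AZ4KR for COX5A (-0.028) and COX5B (-0.059) under total counts, and CYC1 under total counts (-0.096), limma-voom (-0.056) and the block (-0.038). In Ino80K929R CYC1 changed sign under the length offset (0.27). With single libraries left out, log2 fold changes ran from -0.055 to 0.26 for COX5B and from -0.41 to 0.24 for CYC1 in H2AZ4KR, from -1.11 to 0.019 for COX26 and from -0.34 to 0.23 for CYC1 in Ino80K929R, and from -0.87 to 0.11 for CYC7 between the wild types. The cause of these shifts was not tested. Depth was similar in all libraries, and the 3 libraries per group limit what can be called.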
